A study of Rattus norvegicus with 4 samples.

Results

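CXC chemokines are small secreted proteins that guide leukocytes, and the family also holds 2 proteins that platelets store, platelet factor 4 (Pf4) and pro-platelet basic protein (Ppbp). Of 9 genes considered (Cxcl1, Cxcl2, Cxcl9, Cxcl10, Cxcl11, Cxcl12, Cxcl16, Pf4 and Ppbp), 8 had a probe set with that gene as its single symbol in the annotation of the array, 1 probe set each, out of 14824 such probe sets of 14557 genes. Cxcl12 had none and was not analysed here. The genes were taken by name, with earlier results of these data known.

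The cells were fibroblasts from tail tendons of Lewis rats that were retired breeders, held in gels of type I collagen. After 2 days in medium with 10% fetal bovine serum they spent 24 hours in serum-free medium with 10% releasate of clotted PRP or PPP, abbreviations read here from common usage as platelet-rich and platelet-poor plasma. There were 2 PRP arrays and 2 PPP arrays, both groups of the same cells, gels and medium, and no untreated arrays were analysed here. The labels number the replicates without saying whether they were separate cultures or animals, and they name neither the donor nor the species of the plasma, so p-values measure only the spread between these arrays. Values are log2 intensities summarised by RMA, and a level can be compared between arrays within a probe set but not between probe sets. The correlation across probe sets was 0.995 between the PRP arrays and 0.994 between the PPP arrays, against 0.987 to 0.990 between treatments. All 11 fibroblast markers were measured, with no value below 7.56. Among tendon markers Scx, a transcription factor of the tendon lineage, averaged 6.22 with PRP and 6.77 with PPP, whereas Tnmd, a membrane protein of mature tendon cells, averaged 3.11 with PRP and 4.46 with PPP. The median of all named values was 4.12. No detection call was available, so low values could not be told from background.

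CXC chemokines carry a pair of conserved cysteines with a single residue between them. Those with the motif Glu-Leu-Arg ahead of the cysteines, such as Cxcl1, Cxcl2 and the neutrophil-attracting fragment of Ppbp, act on Cxcr2 and draw neutrophils. Cxcl9, Cxcl10 and Cxcl11 are induced by interferons, bind Cxcr3 and draw activated T cells, while Cxcl16 is made as a membrane protein that binds Cxcr6 and can be shed. Fibroblasts are known to make several of these chemokines when stimulated by interleukin 1 or tumour necrosis factor, and Pf4 and Ppbp are best known from the alpha granules of platelets.

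Cxcl1, Pf4 and Cxcl16 rose with PRP relative to PPP, and the other 5 measured CXC chemokines did not pass the test. Thus 3 of 8 members passed an adjusted p of 0.05 as higher with PRP and 0 as lower, where 0.830% of all 14824 named probe sets passed as higher and 1.02% as lower (limma, Benjamini-Hochberg adjustment over all named probe sets). Because the members were chosen with earlier results known, these shares describe the members and do not test them as a set. The members' log2 differences ran from -0.16 to 4.38 with a median of 0.28, beside a median of 0.00 over all named probe sets, and 7 of the 8 were above 0. In the same 3 genes both PRP arrays lay above both PPP arrays, as in 23.9% of all named probe sets, and 0 members had both below, as in 22.5%, so that 46.4% of all named probe sets had groups that were apart. In bulk samples such as these, fewer cells of a type and less RNA per cell cannot be told apart.

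**Figure D1:**
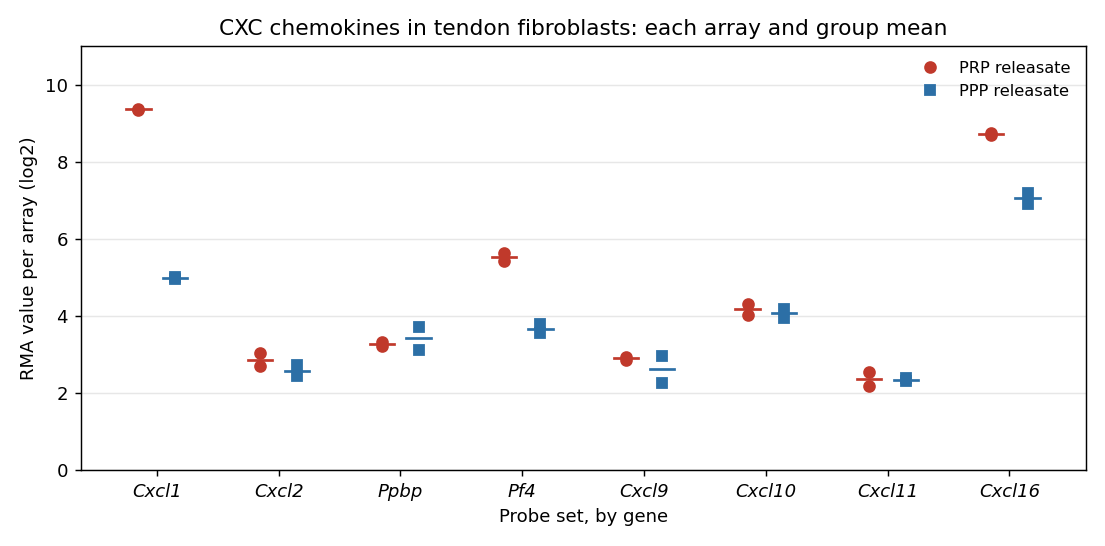
RMA value (log2) of each CXC chemokine probe set on each array, with PRP arrays as red circles left of PPP arrays as blue squares and short lines at the group means of 2 arrays. Cxcl1, Pf4 and Cxcl16 are apart by at least 1.49 between the nearest arrays of the 2 treatments, and the other 5 genes overlap.

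Among the ligands that draw neutrophils, Cxcl1 read 9.37 and 9.34 on the PRP arrays, against 4.95 and 5.0 on the PPP arrays. The arrays of a treatment lay within 0.05 of each other, while the nearest arrays of different treatments were 4.34 apart. The difference was 4.38 on the log2 scale (SE 0.10), a 20.8-fold higher level with a 95% interval of 17.4 to 24.9-fold (adjusted p 0.000243 by limma). Ranked by size, this difference was number 1 of all 14824 named probe sets. Cxcl2, a close relative of Cxcl1 that acts on the same receptor, read 2.69 and 3.05 on the PRP arrays, against 2.44 and 2.73 on the PPP arrays. Its groups overlapped and it did not pass, with a difference of 0.28 and a 95% interval of -0.13 to 0.70 (adjusted p 0.476). All 4 of its values lay below the median of the named probe sets, so a change from one low level to another could be missed. The log2 ratio of Cxcl1 to Cxcl2 within an array was 4.10 higher with PRP, a difference seen in every pairing of the arrays. An exact two-sided permutation test of it gave p = 0.333, the smallest that 2 against 2 arrays allow, and 0.333 after Benjamini-Hochberg adjustment over the 2 ratios tested. Cxcl1 and Cxcl2 are similar in sequence, as is Cxcl3, which was not analysed here, and shared probes would make their values uncertain to that extent.

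Shown are the promoters of Cxcl1 and Cxcl2, neighbours with the same short motif, and that of Cxcl16, which had no match to it. They were chosen with the differences known. They are the 250 bases before the annotated start in RefSeq on build GRCr8, 5' to 3' on the gene's strand, and capitals mark matches on either strand to GGG, any 2 bases and then TTTCC, a form of the site that NF-kB binds.
Cxcl1 (chr14:17479322-17479571, minus strand): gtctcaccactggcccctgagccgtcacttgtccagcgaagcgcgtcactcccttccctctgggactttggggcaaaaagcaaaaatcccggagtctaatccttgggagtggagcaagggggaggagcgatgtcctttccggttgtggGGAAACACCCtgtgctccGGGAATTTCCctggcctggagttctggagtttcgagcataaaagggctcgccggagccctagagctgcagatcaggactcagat
Cxcl2 (chr14:17467256-17467505, minus strand): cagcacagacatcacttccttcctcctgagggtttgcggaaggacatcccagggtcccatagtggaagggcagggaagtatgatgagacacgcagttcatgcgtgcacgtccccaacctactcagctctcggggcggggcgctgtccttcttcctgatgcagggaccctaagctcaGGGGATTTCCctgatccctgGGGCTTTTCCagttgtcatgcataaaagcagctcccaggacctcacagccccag
Cxcl16 (chr10:55669951-55670200, minus strand): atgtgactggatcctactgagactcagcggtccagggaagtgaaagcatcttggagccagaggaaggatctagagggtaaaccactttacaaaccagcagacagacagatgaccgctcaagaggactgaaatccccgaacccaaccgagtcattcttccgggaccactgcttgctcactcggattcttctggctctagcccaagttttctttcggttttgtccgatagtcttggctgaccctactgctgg
The promoter table matched 8 of the 9 genes, all but Pf4. Cxcl1 had 2 matches: GGAAACACCC, on the opposite strand, began 102 bases before the start, and GGGAATTTCC began 84 bases before it. Cxcl2 also had 2, GGGGATTTCC at 74 and GGGCTTTTCC at 54 bases before the start. The motif was in 1.3% of the 33469 promoters of the table at the same length and in none of the other 6 members matched. Other forms of the NF-kB site were not searched, so their absence from those members is not shown. GAAA, any 2 bases and again GAAA, a form of the interferon response element, occurred in Cxcl10 alone among the members (GAAAGTGAAA, 243 bases before the start) and in 3.41% of all promoters. TATAAA, the core of the TATA box, was found in Ppbp (105 and 83 bases before the start), Cxcl10 (162) and Cxcl11 (41). It was in 12.9% of all promoters. Other forms of the TATA box and of the interferon response element were not searched. Their absence from the other members is therefore not shown. No match of one motif overlapped another. These matches describe letters in the window and not binding. Whether any motif had a part in the differences was not tested.

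Of the 2 chemokine genes named for platelets, Pf4 passed and Ppbp did not. Pf4, which binds heparin and other glycosaminoglycans, read 5.62 and 5.43 on the PRP arrays, against 3.79 and 3.56 on the PPP arrays. Both PRP arrays lay above both PPP arrays, by 1.64 at the nearest, and the difference of 1.85 (SE 0.13) made a 3.61-fold higher level with a 95% interval of 2.87 to 4.54-fold (adjusted p 0.00398). The PPP values lay below the median of the named probe sets, so the fold is uncertain on that side. Ppbp, the precursor of beta-thromboglobulin and of a peptide that draws neutrophils, read 3.22 and 3.32 on the PRP arrays, against 3.72 and 3.13 on the PPP arrays. Its groups overlapped, and its difference of -0.16 had a 95% interval of -0.65 to 0.34 (adjusted p 0.765). All values of Ppbp lay below the median of the named probe sets, where the lack of a difference carries little information. The PPP arrays of Ppbp were 0.58 apart, more than in 97.3% of the named probe sets. Its difference was 0.13 without PPP replicate 1. The log2 ratio of Pf4 to Ppbp within an array was 2.01 higher with PRP (exact two-sided permutation p = 0.333, again the smallest possible and 0.333 after adjustment over the 2 ratios).

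Other genes of platelets did not pass beside Pf4. Of 18 markers of platelets and megakaryocytes listed without Pf4 and Ppbp, 10 were measured and 0 passed by limma at an adjusted p of 0.05. Over all 14824 named probe sets 1.85% passed in either direction. At that share, 0 passing says little about lists this short, here and for leukocyte, endothelial and red cell markers below. An unadjusted p under 0.05 was found for 1 of the 10 platelet markers, and for 2411 of all 14824 named probe sets. Their summed intensity on the linear scale was 109 and 123 on the PRP arrays, against 104 and 121 on the PPP arrays, and the 2 treatments overlapped. Gp9 and Gp1ba, subunits of the platelet receptor for von Willebrand factor, averaged 4.2 and 2.01 with PRP, against 4.18 and 2.14 with PPP. Gp5, another part of that receptor, was nearest to the threshold, with a difference of 0.44 (adjusted p 0.194). The differences of the other 7 markers were -0.27 for the lipoxygenase Alox12, -0.14 for the transcription factor Nfe2, -0.19 for the adhesion receptor Selp, 0.09 for the granule protein Mmrn1, 0.24 for the integrin subunit Itgb3, -0.13 for Treml1 and -0.04 for the ADP receptor P2ry12. Itgb3 is also made by fibroblasts, and it had the highest values of the 10 and so weighed most in the sum. Apart from Itgb3 and Gp9, all values of these markers lay below the median of the named probe sets. There the lack of a difference carries little information. Among 14 measured markers of leukocytes and macrophages 0 passed, with 5 at an unadjusted p under 0.05, and their summed linear intensity was 201 and 197 on the PRP arrays, against 174 and 186 on the PPP arrays. Ptprc, the leukocyte antigen CD45, averaged 2.13 with PRP and 2.20 with PPP. The smallest p among them was that of Tyrobp, a myeloid adaptor, with a difference of -0.87 (adjusted p 0.0559). It passed as lower with PRP with an intensity trend, median centring or cyclic loess (adjusted p 0.0271, 0.0280 and 0.0376) and not under its other 7 alternatives (up to 0.272). Of the 14 markers 8 had negative differences, with a median of -0.07. Cd14, a coreceptor for lipopolysaccharide, added most to the gap between the sums and did not pass (0.39, adjusted p 0.301). Without Cd14 the sum was 98.5 and 99.5 on the PRP arrays, against 107 and 98.3 on the PPP arrays, and the treatments overlapped. Cd14 was left out because it added most, so a smaller gap was fixed in advance. The part of the leukocyte markers in the rises was not tested. Among 8 endothelial and 4 red cell markers 0 passed too, with 2 and 1 at an unadjusted p under 0.05. The smallest p values were those of Tek, an endothelial receptor (0.68, adjusted p 0.122), and of the globin Hbb-b1 (0.53, adjusted p 0.114). Summed linear intensities for endothelium were 65.0 and 70.9 with PRP, against 59.4 and 59.2 with PPP. For red cells they were 47.9 and 55.7 with PRP, against 42.1 and 42.8 with PPP. The part of the endothelial and red cell markers in the rises was not tested. Tek and the red cell marker Ahsp added most to the gaps between these sums and were left out in the same way. Smaller gaps were fixed in advance here too. Without Tek, the endothelial sum was 42.0 and 44.4 with PRP, against 45.8 and 41.8 with PPP, and the treatments overlapped. Without Ahsp, the red cell sum was 28 and 28.2 with PRP, against 26.7 and 23.7 with PPP. Both PRP sums stayed above both PPP sums. Tek passed as higher when the dimmer probe sets were left out (adjusted p 0.0467) and not under its other 10 alternatives (up to 0.451).

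The interferon-induced ligands of Cxcr3 did not pass. Cxcl9 read 2.86 and 2.94 on the PRP arrays, against 2.97 and 2.26 on the PPP arrays. Cxcl10 read 4.03 and 4.32 on the PRP arrays, against 4.19 and 3.94 on the PPP arrays. Cxcl11 read 2.55 and 2.19 on the PRP arrays, against 2.38 and 2.31 on the PPP arrays. In all 3 the treatments overlapped. The 95% intervals of the PRP over PPP ratio were 0.817 to 1.81 for Cxcl9, 0.836 to 1.40 for Cxcl10 and 0.790 to 1.31 for Cxcl11, with adjusted p of 0.616, 0.776 and 0.962. The PPP arrays of Cxcl9 were 0.71 apart, more than in 99.0% of the named probe sets. All values of Cxcl9 and Cxcl11 lay below the median of the named probe sets, where the lack of a difference carries little information. The sign of all 3 differences turned when 1 array was left out, to -0.07 for Cxcl9 without PPP replicate 2, to -0.01 and -0.03 for Cxcl10 without PPP replicate 2 or PRP replicate 2, and to -0.01 and -0.15 for Cxcl11 without PPP replicate 2 or PRP replicate 1. Of 16 measured genes of the interferon pathway 0 passed by limma, 2 had an unadjusted p under 0.05, and the median difference was -0.08. Of all 14824 named probe sets, 2411 had such an unadjusted p and 1.85% passed. The 2 with the smallest p were the receptor kinases Jak2 (-0.41, adjusted p 0.256) and Tyk2 (-0.31, adjusted p 0.281).

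Cxcl16, the membrane-anchored ligand of Cxcr6, read 8.74 and 8.68 on the PRP arrays, against 7.18 and 6.91 on the PPP arrays. Both PRP arrays lay above both PPP arrays, by 1.49 at the nearest, and the 4 values were all above the median of the named probe sets. The difference of 1.66 (SE 0.13) was a 3.16-fold higher level with a 95% interval of 2.53 to 3.95-fold (adjusted p 0.00507). Cxcl16 lies on chromosome 10 in the GRCr8 gene table, apart from the other 7 measured members on chromosome 14.

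The order of genes on chromosome 14 did not sort the members by difference. In GRCr8, Cxcl2 and Cxcl1 are next to each other, followed after 5 genes without a named probe set, among them Cxcl3, by Pf4, Ppbp and, after 1 more such gene, Cxcl6. The differences in that order were 0.28, 4.38, 1.85, -0.16 and 0.15, so that each gene that rose had a direct neighbour that did not pass. The other block holds Cxcl11, Cxcl10 and Cxcl9 side by side, with differences of 0.02, 0.11 and 0.28. The build behind the array is not given in the sources used here, so only the order is used.

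**Figure D2:**
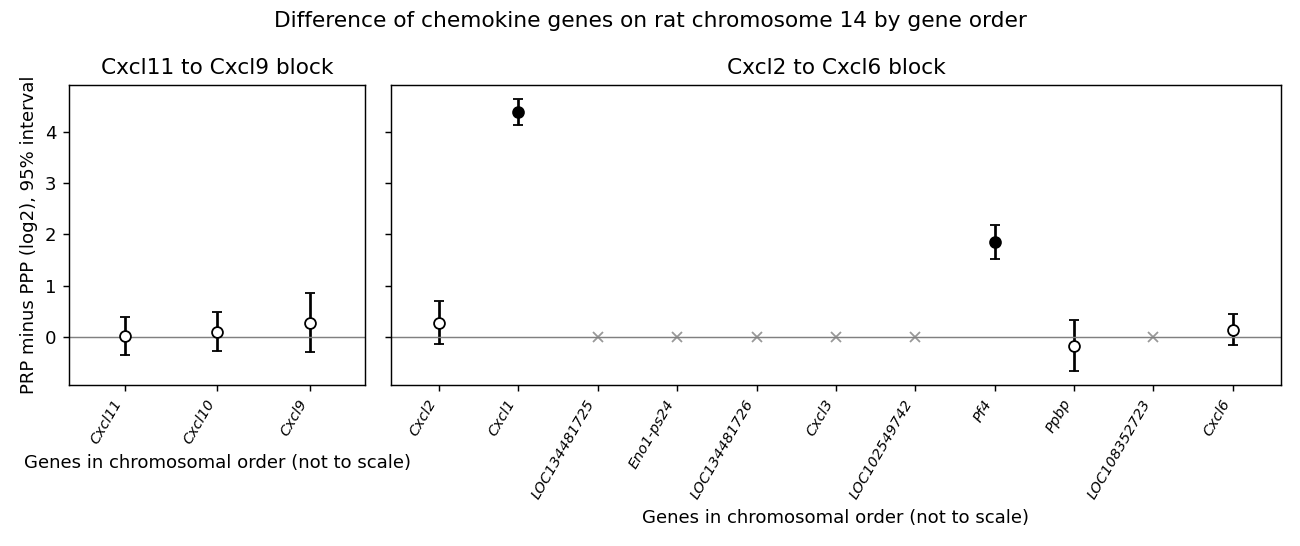
PRP minus PPP difference (log2) of chemokine genes in their order on rat chromosome 14 in GRCr8, with limma's 95% interval from 2 arrays per treatment. Filled points passed an adjusted p of 0.05 and open points did not, and grey crosses mark genes without a named probe set. Cxcl1 and Pf4 stand above their neighbours, at 4.38 and 1.85.

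The 3 rises differed in how they held when the processing changed. Cxcl1 passed under all 11 alternatives run, with differences of 4.31 to 4.42 and adjusted p of 7.53e-08 to 0.0268. Pf4 and Cxcl16 also passed when any array was dropped (adjusted p at most 0.0415 and 0.0419) and lost their calls in a fit of all 36685 probe sets of the table, with adjusted p of 0.0985 and 0.105. Over all 11 alternatives their adjusted p ran from 0.00027 to 0.0985 for Pf4 and from 4.14e-05 to 0.105 for Cxcl16, and their differences stayed within 1.74 to 1.97 and 1.53 to 1.79.

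**Figure D3:**
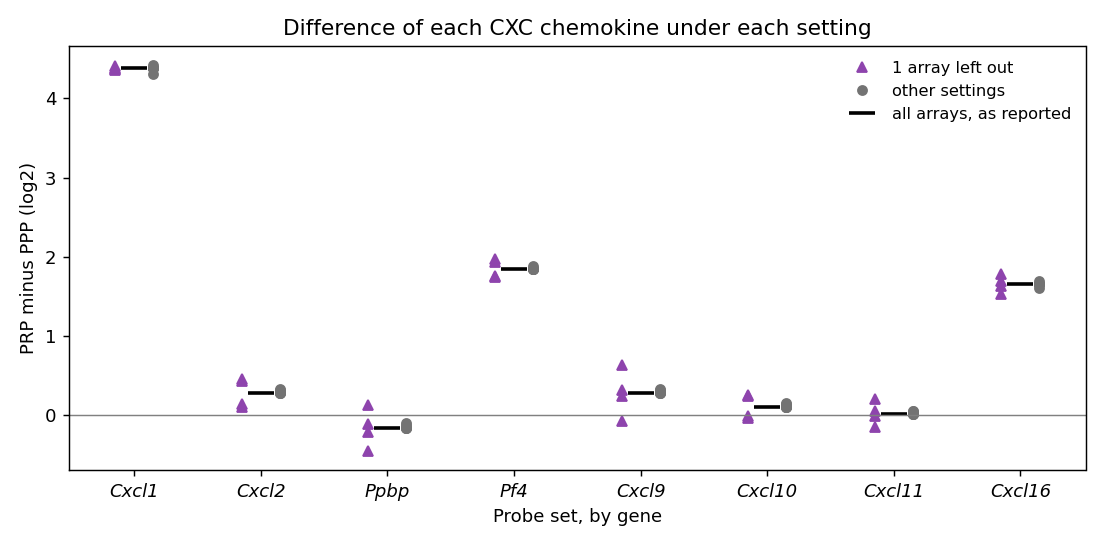
PRP minus PPP difference (log2) of each CXC chemokine as reported (black bars), with 1 array left out (purple triangles) and under the other settings (grey circles). Cxcl1, Pf4 and Cxcl16 keep their size, and the differences of Ppbp, Cxcl9, Cxcl10 and Cxcl11 fall on both sides of 0.

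By the distance between their mean-centred log2 values over the 4 arrays, the 3 named probe sets nearest to Cxcl1 were Lcn2, an iron carrier binding protein (distance 0.343), the stromelysin Mmp3 (1.25) and Prl6a1 of the prolactin family (1.25). Their differences were 4.06, 3.15 and 3.14. Nearest to Pf4 were neuropeptide Y, Npy (0.0974), the secreted phospholipase Pla2g2a (0.142) and adrenomedullin, Adm (0.151), with differences of 1.87, 1.92 and 1.77. Nearest to Cxcl16 were the pattern recognition protein Ptx3 (0.075), Adm (0.134) and the lipase inhibitor Angptl4 (0.158), with differences of 1.60, 1.77 and 1.51. With 4 arrays in 2 treatments this likeness mostly reflects the size of the difference, and it was used as a description.

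Other CXC ligands did not pass with all named probe sets tested. Of 6 listed, Cxcl17, Cxcl6 and Cxcl13 were measured, and 0 passed by limma, with 1 at an unadjusted p under 0.05. So were 2411 of all 14824 named probe sets, and 1.85% of all 14824 passed. Cxcl17, a chemokine of mucosal surfaces, read 4.30 and 4.42 on the PRP arrays, against 4.86 and 4.84 on the PPP arrays, a difference of -0.49 (adjusted p 0.113). It passed as lower with PRP when the dimmer probe sets were left out (adjusted p 0.0322) and not under its other 10 alternatives (up to 0.457). Cxcl6, a ligand of the neutrophil receptors, and Cxcl13, which draws B cells, had differences of 0.15 and -0.18, with adjusted p of 0.610 and 0.684.

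Among receptors of CXC and other chemokines, the differences that passed were those of atypical receptors, which bind chemokines without the usual G protein signal. Of 9 measured receptors 1 rose, 1 fell and 7 did not pass, with a median difference of -0.09. For this list and those below, 0.830% of all named probe sets passed as higher and 1.02% as lower. The lists were chosen with earlier results of these data known, so their counts are a description. Ackr3, which takes up Cxcl12 and Cxcl11, read 7.17 and 7.05 on the PRP arrays, against 8.35 and 7.94 on the PPP arrays. It fell by 1.04 on the log2 scale (SE 0.16, adjusted p 0.0429). Ackr4, known chiefly for removing CC chemokines, read 8.09 and 8.04 on the PRP arrays, against 7.15 and 7.16 on the PPP arrays. It rose by 0.91 (SE 0.10, adjusted p 0.0157). Neither was called once any of the 4 arrays was dropped, when adjusted p was 0.0584 to 0.239 for Ackr3 and 0.0881 to 0.142 for Ackr4, nor in the fit of all 36685 probe sets. Over all alternatives their adjusted p ran from 0.00214 to 0.249 and from 0.000294 to 0.156. Cxcr2, the receptor of Cxcl1 and Cxcl2, read 2.19 and 2.18 on the PRP arrays, against 2.54 and 2.28 on the PPP arrays. Cxcr3 averaged 3.76 with PRP and 3.47 with PPP, Cxcr6, the receptor of Cxcl16, averaged 2.77 with PRP and 2.57 with PPP, and Cxcr4 averaged 3.74 with PRP and 3.82 with PPP. None of these 4 passed (adjusted p 0.457 to 0.765), and all their values lay below the median of the named probe sets.

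**Figure D4:**
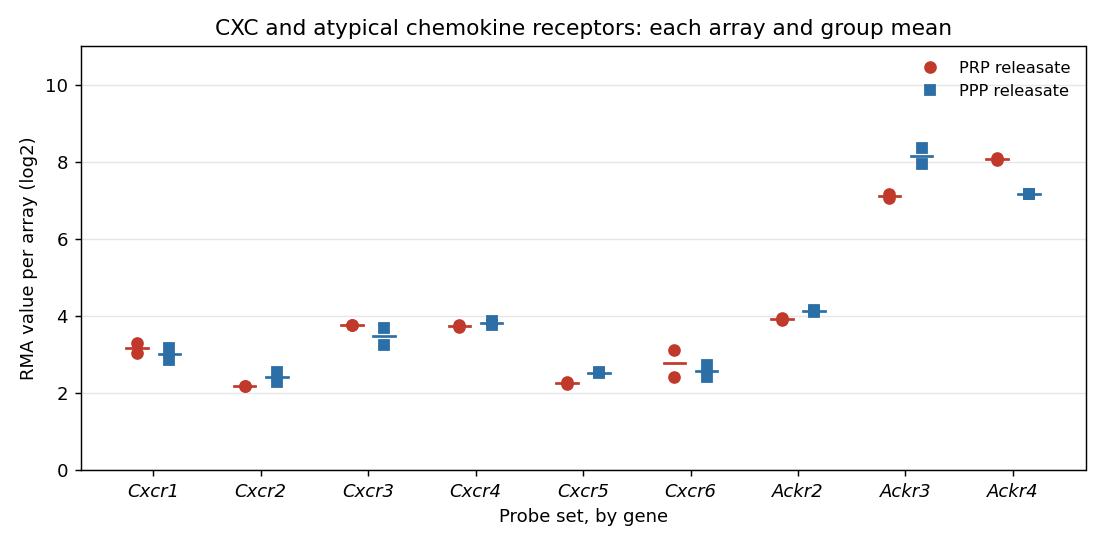
RMA value (log2) of each chemokine receptor probe set on each array, with PRP arrays as red circles left of PPP arrays as blue squares and short lines at the means of 2 arrays. Ackr3 is lower with PRP by 1.04 and Ackr4 higher by 0.91, and no receptor named Cxcr passed.

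Among proteases that cut or shed CXC chemokines, 4 rose of the 11 that were measured and 0 fell, with a median difference of 0.01. The share passing as higher over all named probe sets was 0.830%, and the list was chosen with earlier results known. Adam17, a sheddase of membrane proteins including Cxcl16, read 7.82 and 7.83 on the PRP arrays, against 7.04 and 7.19 on the PPP arrays, a difference of 0.71 (adjusted p 0.0451). Mmp3, a stromelysin, Mmp9, a gelatinase, and Mmp13, a collagenase, had differences of 3.15, 2.42 and 1.46, with adjusted p of 0.00122, 0.00122 and 0.00927. Mmp2 and Mmp14, which also cut Cxcl12, had differences of -0.04 and -0.13 and did not pass (adjusted p 0.918 and 0.598). Adam10 and Dpp4 were not analysed here. Adam17 was no longer called when any array was dropped (adjusted p 0.106 to 0.257), and Mmp13 when PPP replicate 1 or either PRP array was (at most 0.0723).

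Of 12 measured genes of heparan sulfate, the surface sugar that holds chemokines, 1 fell, 0 rose and 11 did not pass, with a median difference of -0.09. Sulf2, an enzyme that removes sulfate groups from it, read 5.55 and 5.32 on the PRP arrays, against 6.59 and 6.51 on the PPP arrays. It fell by 1.12 (adjusted p 0.0145) and was not called when any array was dropped (adjusted p 0.0601 to 0.120). The next was the core protein Gpc4, with a difference of -0.89 (adjusted p 0.0561). Gpc4 passed as lower with PRP with an intensity trend, without the dimmer probe sets, with median centring and with cyclic loess (adjusted p 0.00485, 0.0188, 0.0403 and 0.0309), and not under its other 7 alternatives (up to 0.274).

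In the NF-kB and interleukin 1 pathway, which is known to switch on Cxcl1, 3 rose of the 21 that were measured and 0 fell, with a median difference of 0.21. Over all named probe sets 0.830% passed as higher. The 3 genes were the cytokine Il1a (3.10, adjusted p 0.00122), the NF-kB inhibitor Nfkbia (1.03, adjusted p 0.0110) and Irak3, which restrains interleukin 1 receptor signalling (0.86, adjusted p 0.0491). Neither Nfkbia nor Irak3 was called when any array was dropped (adjusted p at most 0.0999 and 0.261). Of 9 measured factors that act on the stability of chemokine messages 1 rose and 8 did not pass, with a median difference of 0.15. The RNase Zc3h12a rose by 0.98 (adjusted p 0.0127, and 0.0812 to 0.117 on dropping an array, with no call in any such fit), and Hnrnpd, an AU-rich element binding protein, was next (0.27, adjusted p 0.30, and 0.0468 to 0.664 over its alternatives, past the threshold with an intensity trend).

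**Figure D5:**
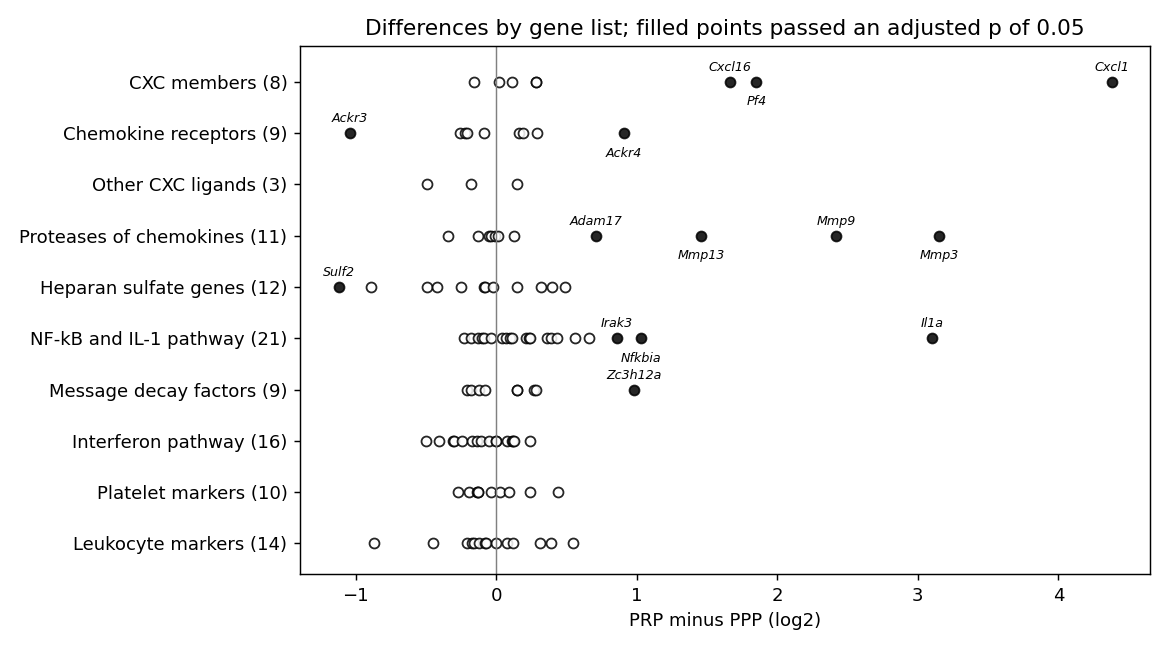
PRP minus PPP difference (log2) of every measured gene of the CXC chemokines, of 7 pathway lists and of platelet and leukocyte markers, with the number measured in brackets. Filled, named points passed an adjusted p of 0.05 by limma and open points did not. Cxcl1 lies farthest right at 4.38, and no filled point stands in the rows of other CXC ligands, interferon genes, platelet or leukocyte markers.

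Markers of the cells themselves were part of the same contrast. Differences of the 11 fibroblast markers ran from -0.79 to 0.56, with 4 above 0, 7 below and a median of -0.03. Those of the 8 tendon markers ran from -2.43 to 0.12, with 1 above 0, 7 below and a median of -0.63. Of 11 measured fibroblast markers 1 fell and 10 did not pass: the matricellular protein Postn had a difference of -0.79 (adjusted p 0.0274, and 0.113 to 0.208 on dropping an array, with no call in any such fit). Of 8 tendon markers 3 fell and 5 did not pass, namely the proteoglycans Fmod (-2.43, adjusted p 0.00271) and Kera (-1.36, adjusted p 0.00861) and the membrane protein Tnmd (-1.36, adjusted p 0.00861). Kera and Tnmd were not called when either PPP array or PRP replicate 2 was dropped (adjusted p at most 0.0742 for each). The summed linear intensity of the tendon list was 2450 and 2310 on the PRP arrays, against 3160 and 2900 on the PPP arrays, and that of the fibroblast list was 10500 and 10600 with PRP, against 12100 and 11800 with PPP. Their part in the rises of Cxcl1, Pf4 and Cxcl16 was not tested.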

How the data were processed

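Gene expression was measured on 4 Affymetrix arrays, 2 PRP and 2 PPP. The authors deposited log2 values for 36685 probe sets, and the tools named, per the submitters' processing notes, are RMA, limma and oligo, without versions or roles. RMA corrects background, equalises the arrays and summarises probes, so a change in total RNA per cell would not show. The input was 15 ng of RNA, amplified before labelling, per the labels' protocols.

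The platform annotation gave 14824 probe sets a single symbol and 829 several, and 21032 were unnamed. Of the 14824, 14670 had an Entrez identifier in the GRCr8 gene table. Differences (log2 PRP minus PPP) were tested with limma 3.58.1 in R 4.3.3, without trend or filter, two-sided, adjusted by Benjamini-Hochberg over the 14824. Intervals and SE are limma's moderated ones, on 2 residual and 3.87 prior degrees of freedom. Group values are means of 2 arrays. The fit was tested on simulated data. The number of arrays limits the precision.

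The members and lists were chosen with earlier results of these data known. The text names all members, and the listed genes past the threshold (at most 6 of a pathway list, by p). Where fewer passed, it names the 2 of each pathway list, or the 1 of each marker list, with the smallest p, and all platelet markers. It also names the 3 nearest profiles of each member that passed. A few other list genes were named after their values were seen: Scx, Ptprc, Cd14, Ahsp, Mmp2, Mmp14, Cxcl13, Cxcr2, Cxcr3, Cxcr4 and Cxcr6. The alternatives were an intensity trend, leaving out the dimmer probe sets (mean below the median), all probe sets, median centring, cyclic loess, robust moderation, a replicate block and leaving out each array. Protein sequences were not used here.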

Additional observations from a re-analysis of the deposited data

How the results depend on the processing

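Calls over all named probe sets numbered 274 as reported, 808 with an intensity trend, 650 without the dimmer probe sets, 2 in a fit of all 36685 probe sets and 56 to 81 with 1 array left out. CXC chemokines called numbered 3 as reported and 1, Cxcl1, in the fit of all probe sets, and 3 under each of the other 10 alternatives. Genes of the pathway and marker lists called numbered 15 as reported, 28 with a trend, 24 without the dimmer probe sets, 0 in the fit of all probe sets (where Fmod, Il1a, Mmp3 and Mmp9 had adjusted p of 0.0805, 0.0597, 0.0597 and 0.0597), and 4 to 6 with 1 array left out. With 1 array left out, differences that had not passed crossed 0: -0.45 to 0.13 for Ppbp, -0.07 to 0.64 for Cxcl9, -0.03 to 0.26 for Cxcl10, -0.15 to 0.20 for Cxcl11, -0.41 to 0.02 for Selp, -0.21 to 0.69 for Itgb3, -0.33 to 0.07 for Treml1, -0.10 to 0.03 for P2ry12 and -0.05 to 0.10 for Gp9. P2ry12 was at 2e-04 with arrays centred on their medians and at 9e-04 with cyclic loess. The causes were not tested. Fewer arrays leave 1 residual degree of freedom, and a lone array is then assumed to vary like the other treatment. Cxcl2, Cxcl9, Cxcl11 and Ppbp lay below the median of the named probe sets on all arrays, which limits what their lack of a difference shows.

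The replicate numbers share nothing but a number in the labels, and deviations of same-numbered arrays from their group means correlated at 0.00564 across probe sets. A replicate block gave 123 calls over all named probe sets, 9 among the lists and 3 among the CXC chemokines, with adjusted p of 0.00903 for Cxcl1, 0.0220 for Pf4 and 0.0267 for Cxcl16. The listed genes Ackr3, Ackr4, Adam17, Irak3, Zc3h12a and Postn lost their calls under it.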
